A study of Saccharomyces cerevisiae with 18 samples.

Results

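RNA was measured in *snf2Δ* cells of *Saccharomyces cerevisiae* grown in rich medium (YPD) and in the same strain after cysteine was added, and the response to cysteine was read across all genes. The response is the difference between the 3 *snf2Δ* YPD+Cys libraries and the 3 *snf2Δ* YPD libraries, which are 6 of the 18 libraries in the series. The other 12 hold wt and *snf5Δ* cells in the same media, with 3 libraries in each group. All strains are haploid BY4741 derivatives that carry *his3Δ1*, *leu2Δ0*, *met17Δ0* and *ura3Δ0*, so every group, wt included, lacks *MET17*, the sulfhydrylase that joins sulfide to O-acetylhomoserine, and needs methionine or another organic sulfur source to grow. The *snf2Δ* strain has *SNF2*, which encodes the ATPase of the Swi-Snf chromatin remodeler, replaced by KanMX4 and comes from the deletion collection. Cells were grown to log phase in YPD at 30°C, and the YPD+Cys groups spent the last 30 min before harvest in YPD with 3 mM cysteine. Of 7127 genes in the count table, 5757 had enough reads to be tested.

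Yeast takes up sulfate, reduces it to sulfide and joins the sulfide to a carbon chain to make homocysteine. Homocysteine is methylated to methionine, which feeds S-adenosylmethionine (SAM), and is converted to cysteine and glutathione by transsulfuration. The transcription factor Met4 turns on the genes of this pathway when cysteine is scarce. It has no DNA-binding activity of its own and is brought to promoters by Cbf1 or by Met31 and Met32, and the ubiquitin ligase SCF-Met30 switches it off when sulfur amino acids are plentiful.

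In *snf2Δ* cells, 34 genes were lower and 3 higher after cysteine, and 23 of the 34 belong to the sulfur pathway, its transporters or its regulators. The lists of these groups hold 57 of the 5757 genes tested and were drawn up with earlier results of these data known. Recognition sequences of the DNA-binding partners of Met4 stood upstream of most of the lowered genes, and 7 examples are printed here, from several steps of the pathway and its transporters. The motifs searched were CACGTG, which is its own reverse complement and is bound by Cbf1, and AAACTGTG with its reverse complement CACAGTTT, bound by Met31 and Met32, on both strands of the 500 bases before each start codon. The sequences are from the RefSeq reference R64, are written 5′ to 3′ on the strand of the gene and have the motifs in capitals. *MET14* and *MET16* encode neighbouring steps of sulfate assimilation, *SUL2* a sulfate permease and *MET3* the first enzyme of the route. *MET6* encodes methionine synthase, *MUP1* a methionine permease and *SAM1* a SAM synthetase. The stretches lie at chrXI:439568-439653 on the minus strand (*MET14*), chrXVI:877765-877850 on the minus strand (*MET16*), chrXII:323170-323281 on the plus strand (*SUL2*), chrX:455822-456034 on the plus strand (*MET3*), chrV:342427-342667 on the minus strand (*MET6*), chrVII:598917-599001 on the plus strand (*MUP1*) and chrXII:514945-515032 on the plus strand (*SAM1*).
MET14: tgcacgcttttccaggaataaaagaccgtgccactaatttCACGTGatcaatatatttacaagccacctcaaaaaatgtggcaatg
MET16: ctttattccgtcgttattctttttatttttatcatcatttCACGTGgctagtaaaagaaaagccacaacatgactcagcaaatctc
SUL2: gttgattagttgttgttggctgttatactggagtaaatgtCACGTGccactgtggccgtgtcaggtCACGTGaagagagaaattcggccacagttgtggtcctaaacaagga
MET3: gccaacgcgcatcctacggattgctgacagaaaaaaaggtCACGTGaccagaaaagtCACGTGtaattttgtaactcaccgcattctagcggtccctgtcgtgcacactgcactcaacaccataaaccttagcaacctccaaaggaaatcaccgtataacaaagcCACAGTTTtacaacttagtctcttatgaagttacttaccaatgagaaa
MET6: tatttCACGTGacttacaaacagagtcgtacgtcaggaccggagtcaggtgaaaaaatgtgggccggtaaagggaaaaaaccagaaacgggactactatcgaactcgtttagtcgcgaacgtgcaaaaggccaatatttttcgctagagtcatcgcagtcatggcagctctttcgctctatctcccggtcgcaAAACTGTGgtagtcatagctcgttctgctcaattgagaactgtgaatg
MUP1: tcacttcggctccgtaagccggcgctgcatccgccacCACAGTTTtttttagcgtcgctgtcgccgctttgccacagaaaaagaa
SAM1: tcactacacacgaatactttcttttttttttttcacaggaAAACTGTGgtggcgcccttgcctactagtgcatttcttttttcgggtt

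CACGTG was found before 18 of the 34 lowered genes (52.9%) and before 343 of all 5513 nuclear protein-coding genes tested (6.22%). AAACTGTG was found before 16 of the 34 (47.1%) against 154 of 5513 (2.79%), and both before 8 of the 34 (23.5%) against 25 of 5513 (0.453%). Among 162 protein-coding genes lower with the replicate block, the block being a fit that compares same-numbered libraries, the shares were 19.8% for CACGTG and 14.2% for AAACTGTG. They were 10.9% and 5.47% for the 128 of these that were lower only in that fit, and 11.3% and 4.84% for the 124 higher in it. Of the 10 genes of sulfate uptake and assimilation, 9 held CACGTG. The median log2 fold change was -1.61 for the 10 lowered genes with CACGTG alone, -1.36 for the 8 with AAACTGTG alone, -1.62 for the 8 with both and -1.80 for the 8 with neither, and the ranges of the 4 classes overlapped. The 8 with neither were *MXR1*, *STR3*, *OPT1*, *YKL068W-A*, *FRE1*, *ZEO1*, *SAM3* and *CTR1*. A match is a description of the letters in this window and binding was not measured here.

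The 6 *snf2Δ* libraries held 2101434 to 4845830 reads counted in genes. *SNF2* was between 1.23 and 5.22 CPM (counts per 1e6 reads in genes, scaled by TMM) in them and between 187 and 253 CPM in wt, and their summed MATa marker genes lay at 543 to 611 CPM against 26.6 to 35.3 CPM for the MATα markers. *LEU2*, *MET17* and *URA3* had 0 counts in all 18 libraries, while *HIS3*, of which *his3Δ1* removes an internal part only, had 44 to 167 counts. Reads placed at several positions of the genome took 53.5% of YPD library 2 and 44.6% of YPD library 3, against 3.02% to 14% in the other 4 *snf2Δ* libraries. Open reading frames inside the ribosomal DNA moved with this share, at 645.8 and 341.1 CPM in those 2 libraries against 0.75 to 50.4 CPM in the other 4. The part of this load in the results was not tested, and calls lost without both libraries are given with their values. Same-numbered YPD and YPD+Cys libraries deviated together from their group means, so the fit was also made with the replicate number as a block. Nothing in the labels says whether the replicates were separate cultures, and p-values measure the spread between these libraries.

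With edgeR's quasi-likelihood test (Benjamini-Hochberg adjusted p under 0.05) 37 of 5757 genes were called (0.643%), of which 3 were higher (0.0521%) and 34 lower (0.591%) in YPD+Cys. With the replicate block the same 37 were called among 299 (5.19%), with 125 higher (2.17%) and 174 lower (3.02%). Of the 37 called genes 12 changed over 4-fold, and of the 299 called with the block 18 did, all of them falls. Those 18 were the same 12 and 6 reading frames in the ribosomal DNA. Over all genes tested the median was -0.002 on the log2 scale. The libraries of the 2 groups did not overlap in any of the 34 lowered genes. It follows that all 34 were lower in YPD+Cys in each of the 3 same-numbered pairs, which held for 21.7% of all genes. Over all genes, 275 (4.78%) lay lower without overlap and 245 (4.26%) higher. Without YPD libraries 2 and 3 the counts were 16 lower and 0 higher, in a fit where the lone YPD library is assumed to vary like the other groups, and without YPD+Cys library 3 they were 20 lower and 1 higher. In the 6 *snf2Δ* libraries alone 23 were lower and 0 higher, and the 11 falls not called there were those of *BNA3*, *DUG3*, *GRX8*, *GSH1*, *IES5*, *MET1*, *MHT1*, *YHR112C*, *YKL068W-A*, *YLR179C* and *ZEO1* (edgeR adjusted p of 0.0748 to 0.327). The last genes inside the threshold were *CTR1*, *DUG3* and *BNA3* at an adjusted p of 0.0386 in edgeR, and the first outside were *MET30*, *LAP3* and *CAR1* at 0.0849.

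**Figure D1:**
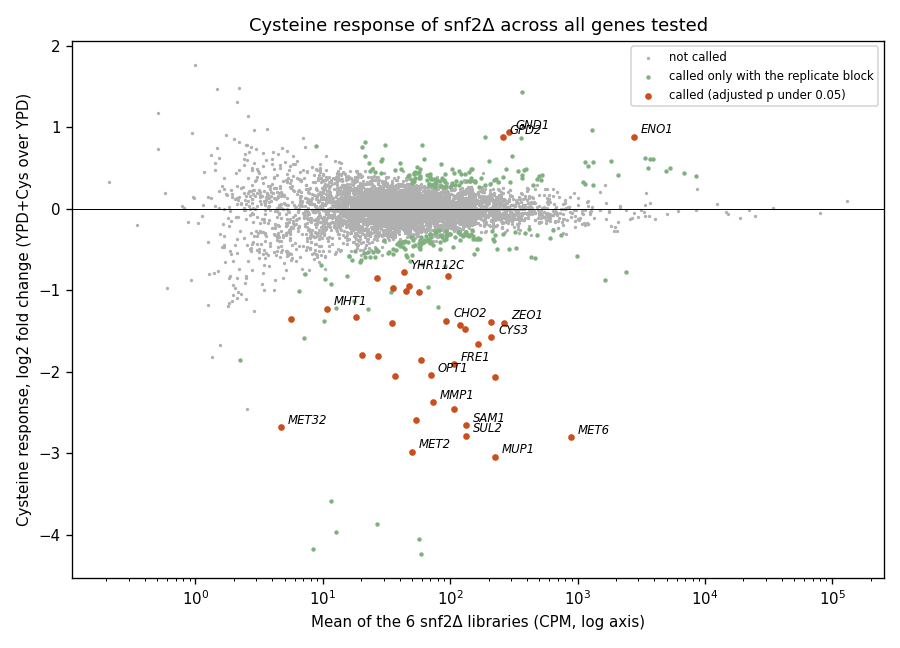
Cysteine response of *snf2Δ* for each gene tested, as the log2 fold change of YPD+Cys over YPD, against the mean CPM of the 6 *snf2Δ* libraries on a log axis, with orange points for the 37 called genes and green for genes called only with the replicate block. The 34 lowered genes run from -0.78 (*YHR112C*) to -3.04 (*MUP1*), and the 3 raised genes, *GND1*, *ENO1* and *GPD2*, lie between 0.88 and 0.94.

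Sulfate uptake and assimilation fell most broadly. Of its 10 genes, 7 were lower and 0 higher, the median on the log2 scale was -1.52, and all 10 were lower with the replicate block (9, 8 and 7 when pair 1, 2 or 3 was left out of it). *SUL2*, a high-affinity sulfate permease, stood at 252.6, 168.0 and 275.0 CPM in YPD and at 42.6, 34.8 and 24.1 CPM in YPD+Cys. The groups were far apart, and the log2 fold change was -2.78 ± 0.28 (SE, n = 3 and 3, edgeR adjusted p = 2.02e-05). *MET3*, ATP sulfurylase, stood at 139.0, 157.1 and 244.2 CPM in YPD and at 33.3, 37.5 and 27.6 CPM with cysteine, a log2 fold change of -2.46 ± 0.23 (edgeR adjusted p = 1.79e-05). *MET14*, the adenylylsulfate kinase of the next step, went from 87.3, 66.0 and 121.5 CPM to 16.3, 15.2 and 14.2 CPM. Its YPD+Cys values lay close together while its YPD values spread widely, and the log2 fold change was -2.59 ± 0.24 (edgeR adjusted p = 1.79e-05).

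The reductases of the pathway followed. *MET16*, the PAPS reductase, fell from 22.1, 25.6 and 30.4 CPM to 10.6, 11.5 and 8.82 CPM. *MET5* and *MET10* encode the subunits of sulfite reductase. *MET5* stood at 346.9, 309.9 and 435.9 CPM in YPD and at 105.5, 100.8 and 56.5 CPM in YPD+Cys, with library 3 holding both the highest YPD and the lowest YPD+Cys value. *MET10* went from 227.0, 182.7 and 347.2 CPM to 88.9, 74.0 and 77.2 CPM. The log2 fold changes of *MET16*, *MET5* and *MET10* were -1.33, -2.06 and -1.66, and no libraries overlapped. *MET1*, which makes the siroheme cofactor of sulfite reductase, fell by 1.01 on the log2 scale (edgeR adjusted p = 0.00932). Without YPD+Cys library 3 the adjusted p of *MET16* and *MET1* became 0.066 and 0.0782, and without YPD library 3 that of *MET1* became 0.0656. Without YPD libraries 2 and 3 together they were 0.556 and 0.588, at log2 fold changes of -1.11 and -0.79. The 3 members that were not called in the unblocked fit had log2 fold changes of -1.38 (*SUL1*, the other sulfate permease), -0.82 (*MET8*, siroheme) and -0.37 (*MET22*, which clears the nucleotide by-product), with edgeR adjusted p of 0.694, 0.842 and 0.867. With the replicate block their adjusted p were 0.0177, 0.0032 and 0.0472. *SUL1* was low in all 6 libraries, between 3.83 and 18.9 CPM.

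**Figure D2:**
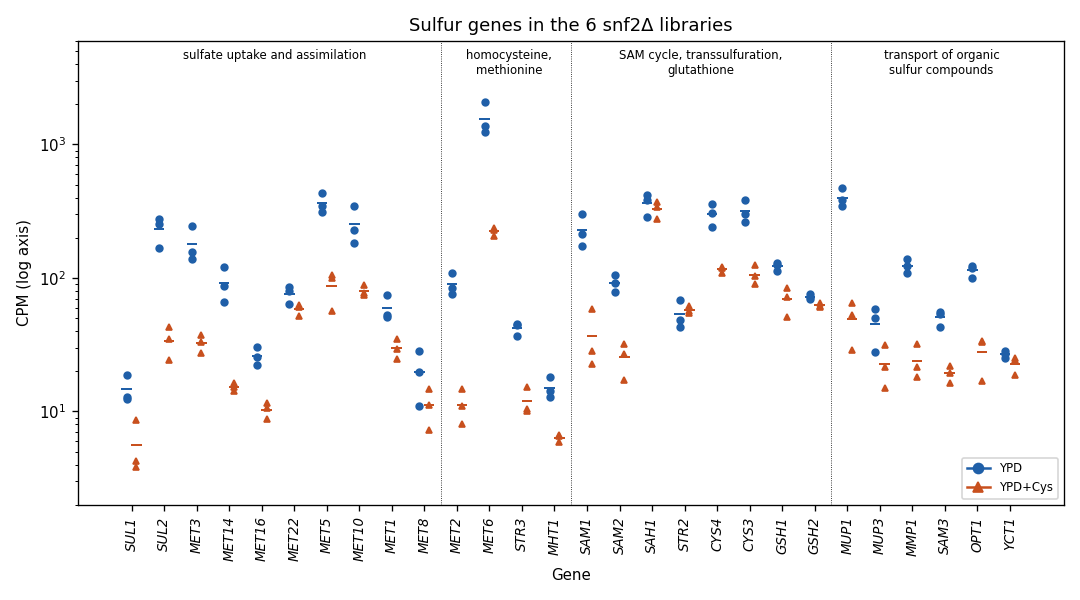
CPM (log axis) of 28 sulfur genes in each of the 3 YPD (blue circles) and 3 YPD+Cys (orange triangles) libraries of *snf2Δ*, with a bar at each group mean and the genes ordered by step. *MET6* is the highest, at 1237 to 2085 CPM in YPD, and *SAH1*, *STR2* and *YCT1* are among the genes whose groups overlap.

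In the synthesis of homocysteine and methionine the falls were limited to a few steps. Of 11 genes tested, 4 were lower and 0 higher (5 lower with the block), and the median log2 fold change was -0.28. *MET2*, the acetyltransferase that activates homoserine, stood at 75.9, 83.5 and 108.8 CPM in YPD and at 14.8, 8.0 and 10.9 CPM in YPD+Cys. The mean fell 7.88-fold, the log2 fold change was -2.98 ± 0.30, and the edgeR adjusted p was 2.6e-05. *MET6*, methionine synthase, was the most abundant of the lowered sulfur genes, at 192.9 ± 85.8 TPM (transcript share scaled by length, SD, n = 3) in YPD and 31.4 ± 0.995 TPM in YPD+Cys. In CPM it went from 1369, 1237 and 2085 to 230.4, 236.8 and 205.4, a log2 fold change of -2.80 ± 0.36 (edgeR adjusted p = 0.000301).

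*STR3*, the cystathionine lyase that releases homocysteine, fell from 37.02, 44.6 and 45.1 CPM to 15.2, 10.5 and 10.2 CPM, and *MHT1*, which methylates homocysteine with S-methylmethionine, fell from 12.8, 14.2 and 18.1 CPM to 6.62, 6.50 and 5.94 CPM. Their log2 fold changes were -1.81 and -1.23. The call of *MHT1* (edgeR adjusted p = 0.0166) was lost without any 1 *snf2Δ* library other than YPD library 1, at 0.0513 to 0.124, and without YPD libraries 2 and 3 together, at 0.89. The genes that make homoserine from aspartate, *HOM3*, *HOM2* and *HOM6*, had log2 fold changes of -0.02, 0.18 and -0.28, of which *HOM6* passed with the block (edgeR adjusted p = 0.0205). The folate enzymes *MET7*, *MET12* and *MET13* had values of 0.15, -0.08 and -0.32, and *SAM4*, a homocysteine methyltransferase that uses SAM, had -0.09. None of the 4 passed in either fit. So within the same list the values ran from -2.98 to 0.18.

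In the SAM cycle, transsulfuration and glutathione synthesis, 5 of 8 genes were lower and 0 higher, with and without the block, and the median was -1.11. *SAM1* and *SAM2* encode SAM synthetases that resemble each other, and reads that match both are left out of the gene counts. *SAM1* stood at 173.0, 300.4 and 214.2 CPM in YPD and at 28.5, 58.5 and 22.8 CPM in YPD+Cys, with a log2 fold change of -2.65 ± 0.48 (edgeR adjusted p = 0.00932). Pair 2 was the highest in both media, and with the block the adjusted p was 1.02e-07. Its call was lost without YPD library 2, YPD+Cys library 1 or YPD+Cys library 3 (edgeR adjusted p of 0.0513, 0.0815 and 0.0788). *SAM2* went from 78.0, 92.1 and 105.1 CPM to 26.9, 32.3 and 17.3 CPM, a log2 fold change of -1.85 (edgeR adjusted p = 0.00615, and 0.0526 without YPD+Cys library 3). In expected counts from RSEM, which shares such reads out, the log2 fold changes were -2.68 for *SAM1* and -1.86 for *SAM2*.

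*CYS4* and *CYS3* encode the enzymes that turn homocysteine into cystathionine and then cysteine, the product that was added to the medium. *CYS4* stood at 242.8, 307.0 and 359.1 CPM in YPD and at 109.0, 118.3 and 119.8 CPM in YPD+Cys, a log2 fold change of -1.39 ± 0.18 (edgeR adjusted p = 0.000285). *CYS3* stood at 263.5, 302.3 and 380.9 CPM in YPD and at 103.1, 124.3 and 90.4 CPM in YPD+Cys, a log2 fold change of -1.57. *GSH1*, which makes the first bond of glutathione, fell from 125.3, 130.02 and 112.5 CPM to 72.6, 83.8 and 51.4 CPM. Its edgeR adjusted p was 0.0122, and 0.0608, 0.0747 and 0.066 without YPD library 1, YPD library 2 or YPD+Cys library 3. The reverse and later steps did not pass in either fit: *STR2*, which runs transsulfuration from cysteine, had a log2 fold change of 0.12, *GSH2*, the second step of glutathione, -0.21, and *SAH1*, which recycles S-adenosylhomocysteine, -0.13. None of the 5 lowered members of the list passed without YPD libraries 2 and 3, where their log2 fold changes were -0.86 to -2.25 and their edgeR adjusted p 0.0801 (*CYS4*) to 0.421 (*SAM1*), while 3 passed without YPD library 2 alone and 2 without YPD+Cys library 3.

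Transporters of organic sulfur compounds fell in 4 of 7 cases, with 0 higher and a median of -1.40, and in 5 with the block. *MUP1*, the high-affinity methionine permease, showed the largest change among called genes. It stood at 383.2, 345.9 and 472.0 CPM in YPD and at 52.5, 65.3 and 28.7 CPM in YPD+Cys, which is 8.23-fold lower in the means and a log2 fold change of -3.04 ± 0.35 (edgeR adjusted p = 8.88e-05). *MMP1*, the S-methylmethionine permease, went from 109.2, 137.6 and 123.5 CPM to 21.4, 32.3 and 18.2 CPM. *OPT1*, which carries glutathione and oligopeptides, went from 118.3, 123.4 and 100.6 CPM to 33.1, 33.8 and 16.9 CPM, and *SAM3*, the SAM permease, from 53.8, 56.0 and 42.7 CPM to 22.1, 19.5 and 16.3 CPM. All 3 were lower in every YPD+Cys library than in any YPD library, with log2 fold changes of -2.37, -2.04 and -1.40. The edgeR adjusted p of *SAM3* was 0.0054, 0.052 without YPD+Cys library 3 and 0.0805 without YPD libraries 2 and 3. *MUP3*, a low-affinity methionine permease, had -1.02 and passed with the block only (edgeR adjusted p = 0.842 without and 0.003 with it). *YCT1*, a cysteine transporter, had -0.24 and *SSU1*, which exports sulfite, 0.20, and neither passed.

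Among 11 genes for other sulfur sources and sulfur lyases, 2 were lower and 0 higher (3 lower with the block), with a median of -0.25. These were *DUG3*, part of the cytosolic enzyme that degrades glutathione, at 32.6, 31.3 and 38.6 CPM against 19.2, 19.2 and 18.4 CPM, and *YHR112C*, at 59.6, 47.9 and 56.6 CPM against 36.8, 29.3 and 29.9 CPM. Both falls were small, with log2 fold changes of -0.85 and -0.78. The edgeR adjusted p of *DUG3* was 0.0386, and 0.077 to 0.196 without any 1 of the 6 libraries. That of *YHR112C* was 0.0133, and 0.0608 to 0.103 without YPD library 1 or 3 or YPD+Cys library 2 or 3. Without YPD libraries 2 and 3 together they were 0.968 and 0.108. *DUG2*, the partner of *DUG3*, had -0.65 and passed with the block only (edgeR adjusted p = 0.00321), while *DUG1* had 0.21.

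Among the regulators *MET32* was called, and *MET28* and *MET30* passed with the block only. Of 10 genes of the Met4 activator and of SCF-Met30, 1 was lower and 0 higher, the median was -0.02, and 3 were lower with the block. *MET32* was scarce, at 7.92, 7.12 and 9.44 CPM in YPD and at 1.32, 1.5 and 0.958 CPM in YPD+Cys, with a log2 fold change of -2.68 ± 0.37 (edgeR adjusted p = 0.000505). Its relative *MET31* had -0.06, *MET4* 0.24 and *CBF1* -0.06. *MET28*, which stabilises the complex, had -1.13 (edgeR adjusted p = 0.0871, and 0.00367 with the block) and *MET30*, the F-box subunit, -0.68 (0.0849, and 0.000108 with the block). The other ligase genes, *SKP1*, *CDC53*, *CDC34* and *HRT1*, lay between 0.02 and 0.31.

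Outside these lists, 5 lowered genes came from metabolism that borders on sulfur and from copper uptake. *SER33* encodes a phosphoglycerate dehydrogenase of serine synthesis, the source of the carbon skeleton of cysteine, and was the only 1 of 15 genes for serine, glycine and one-carbon metabolism to be called without the block. With it *SHM2*, a serine hydroxymethyltransferase, also passed (log2 fold change -0.56, edgeR adjusted p = 0.0176). *SER33* fell from 160.4, 166.1 and 192.5 CPM to 62.2, 74.3 and 56.7 CPM, a log2 fold change of -1.43 ± 0.15 (edgeR adjusted p = 3.5e-05). Its isoenzyme *SER3* stood at 500.7 to 564.7 CPM in YPD and at 503.6 to 514.5 CPM in YPD+Cys, with a log2 fold change of -0.07. Any reads that match both isoenzymes are left out of the counts. *MXR1*, a methionine sulfoxide reductase, was the only called gene among 27 listed for thiol redox. That list does not hold the glutaredoxin gene *GRX8*, which was also lowered. *MXR1* went from 48.2, 77.3 and 53.4 CPM to 10.8, 18.5 and 13.6 CPM, a log2 fold change of -2.05. *CHO2*, which uses SAM to methylate phosphatidylethanolamine, was the only called gene among 20 for phospholipid synthesis and went from 126.2, 148.0 and 129.7 CPM to 55.2, 53.5 and 47.1 CPM, a log2 fold change of -1.37 ± 0.13.

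Of 11 copper genes, 2 were lower and 0 higher, with a median of -0.23. *FRE1*, a surface reductase for copper and iron, stood at 121.3, 187.0 and 197.8 CPM in YPD and at 47.7, 37.8 and 48.7 CPM in YPD+Cys, a log2 fold change of -1.91 ± 0.32. *CTR1*, the high-affinity copper transporter, went from 157.8, 217.3 and 206.4 CPM to 83.6, 54.8 and 69.2 CPM, a log2 fold change of -1.48 ± 0.32. YPD library 1 held the lowest YPD value of both genes, and removing YPD libraries 2 and 3 left *FRE1* at -1.44 (edgeR adjusted p = 0.521) and *CTR1* at -1.19 (adjusted p = 1). The call of *CTR1* was also lost without any 1 of the 6 libraries, at 0.0554 to 0.223. *FRE7*, another reductase, had -1.59 and passed with the block only, and its YPD library 2 (24.2 CPM) stood apart from the other 5 (2.65 to 4.92 CPM). None of 26 iron uptake genes was called in either fit, and their median was 0.09. *FRE1* was counted among the copper genes and not among these 26.

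The remaining 6 lowered genes were in no list, and apart from *YKL068W-A* they are named after their values were seen. *ZEO1*, a protein at the plasma membrane, was among the most abundant at 357.5 ± 113.9 TPM in YPD and 144.9 ± 17.6 TPM in YPD+Cys. It stood at 519.2, 308.0 and 330.4 CPM in YPD and at 167.3, 165.5 and 108.3 CPM in YPD+Cys, a log2 fold change of -1.40. *YKL068W-A*, a small open reading frame, had -1.79, *GRX8*, a glutaredoxin, -1.36, *YLR179C* -1.03, *IES5*, a subunit of the INO80 remodeler, -0.97, and *BNA3*, an aminotransferase, -0.94. The calls of *GRX8* and *BNA3* (edgeR adjusted p of 0.0325 and 0.0386) were lost without any 1 of the 6 libraries, at 0.0608 to 0.23 and 0.0563 to 0.257. Those of *YKL068W-A* and *YLR179C* (0.0117 and 0.0111) were lost without YPD+Cys library 1 (0.106 and 0.0559) or 3 (0.0782 and 0.089), without YPD library 3 for the former (0.0835) and without YPD library 2 for the latter (0.0795). Without YPD libraries 2 and 3 together, the adjusted p were 1 for *GRX8* and *BNA3*, 0.561 for *YKL068W-A*, 0.652 for *YLR179C* and 0.096 for *IES5*.

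Of the lowered genes, 6 formed 3 pairs that start from a shared intergenic region and are read in opposite directions. *MET6* and *IES5* lie 687 bases apart with log2 fold changes of -2.80 and -0.97, *MMP1* and *MHT1* 342 bases apart with -2.37 and -1.23, and *SAM1* and *YLR179C* 548 bases apart with -2.65 and -1.03. The sulfur genes *MET6* and *SAM1* carried the larger fall of their pairs, while *MMP1* and *MHT1* both belong to the sulfur lists. How often neighbouring genes share a direction over all genes was not counted. *MET3* shares its upstream region, 1557 bases long, with the glycolytic gene *TDH2*, which stood at 2625, 2579 and 2812 CPM in YPD and at 3952, 3976 and 4368 CPM in YPD+Cys. There the neighbours went in opposite directions, with *TDH2* at 0.62 (edgeR adjusted p = 0.145, and 0.000112 with the block).

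**Figure D3:**
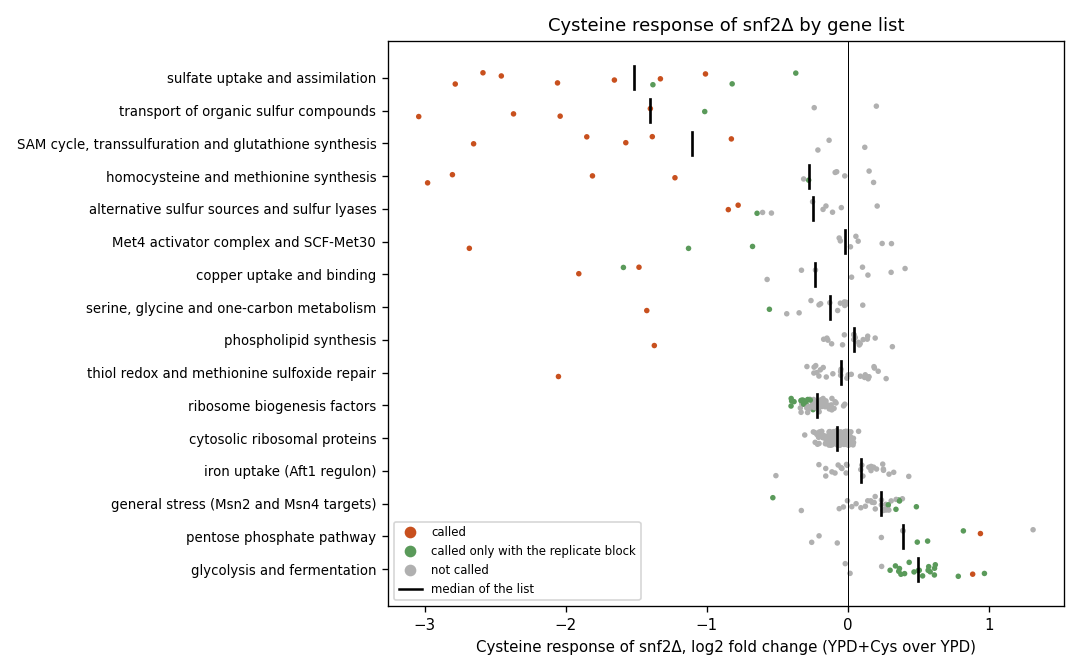
Log2 fold change of YPD+Cys over YPD in *snf2Δ* for the members of 16 gene lists, with orange for called genes, green for genes called only with the replicate block, grey for the rest and a black bar at the median of each list. The medians run from -1.52 for sulfate uptake and assimilation to 0.50 for glycolysis and fermentation, and within most sulfur lists some members stay near 0.

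The 3 raised genes belong to sugar metabolism. *GND1*, 6-phosphogluconate dehydrogenase of the pentose phosphate pathway, stood at 199.3, 194.6 and 202.7 CPM in YPD and at 374.7, 299.3 and 467.8 CPM in YPD+Cys, a log2 fold change of 0.94 ± 0.17 (edgeR adjusted p = 0.00932). *ENO1*, enolase, went from 1960, 1633 and 2254 CPM to 3641, 2901 and 4232 CPM, a log2 fold change of 0.88 ± 0.18 (adjusted p = 0.0217). *GPD2*, a glycerol-3-phosphate dehydrogenase, went from 193.9, 170.3 and 181.8 CPM to 363.0, 268.3 and 374.8 CPM, a log2 fold change of 0.88 ± 0.13 (adjusted p = 0.00188). In all 3 genes the groups were clearly apart, and YPD+Cys library 2 was the lowest of its group. All 3 calls were lost in the 6 *snf2Δ* libraries alone (adjusted p of 0.117, 0.251 and 0.104) and without YPD libraries 2 and 3 (0.588, 0.707 and 0.377), with log2 fold changes of 0.79 to 0.94. *GND1* also missed without YPD library 1, YPD library 2 or YPD+Cys library 3 (edgeR adjusted p of 0.0552, 0.062 and 0.0782), and *ENO1* without the same 3 (0.103, 0.188 and 0.174) or YPD+Cys library 1 (0.0823).

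Glycolysis and fermentation shifted as a group by less than the single-gene falls of sulfur metabolism. Of 23 genes, 1 was higher without the block and 20 with it, none was lower in either fit, and the log2 median was 0.50 against -0.002 for all genes. The ratio of YPD+Cys to YPD was above 1 in all 3 same-numbered pairs for 21 of the 23 (91.3%) and for 21.1% of all genes. With pair 1, 2 or 3 left out of the blocked fit, 13, 15 or 11 of the 23 passed. *PGK1*, phosphoglycerate kinase, stood at 2954, 2629 and 3271 CPM in YPD and at 4354, 4018 and 5159 CPM in YPD+Cys, with a log2 fold change of 0.61 ± 0.15 (edgeR adjusted p = 0.0871, and 0.000303 with the block). *TDH1*, a glyceraldehyde-3-phosphate dehydrogenase, stood at 834.0, 581.8 and 1243 CPM in YPD and at 1886, 1070 and 2234 CPM in YPD+Cys. Its groups overlapped although each pair rose, and the log2 fold change was 0.97 (adjusted p = 0.442, and 3.42e-07 with the block). *PDC1*, the main pyruvate decarboxylase, had 0.24 and the minor forms *PDC5* and *PDC6* 0.01 and -0.02, and these 3 did not pass in either fit. Several of these enzymes (*TDH1*, *TDH2*, *TDH3*, *ENO1* and *ENO2*) have near-identical copies, and reads that match several copies are left out of the gene counts. The shift was not particular to *snf2Δ*. In wt the median of the 23 genes was 0.43, with 1 higher without the block and 17 with it. In *snf5Δ* the median was 0.33.

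In the pentose phosphate pathway 1 of 11 genes was higher, 4 with the block, and the median was 0.39. *SOL3*, *SOL4* and *TAL1* joined *GND1* with log2 fold changes of 0.56, 0.82 and 0.49, while *ZWF1*, which feeds the pathway, had -0.21. Small shifts of other groups also appeared only with the block. Of 65 ribosome biogenesis factors, 0 were called without the block and 14 were lower with it, all 65 had negative values, and the median was -0.22. For 49 of the 65 (75.4%) the ratio was below 1 in all 3 pairs, against 21.7% of all genes. Without pair 1, 2 or 3 the blocked fit called 1, 9 or 1 of the 65. Of 45 amino acid synthesis genes that Gcn4 activates, 10 were higher with the block and 0 without it, with a median of 0.18, and 0, 13 or 2 passed without pair 1, 2 or 3. Of 29 heat shock genes 6 (0, 6 or 2 without pair 1, 2 or 3) were higher with the block. Of 31 general stress genes 5 were higher with the block (0, 6 or 1 without pair 1, 2 or 3) and 1, *GRE2*, was lower (log2 fold change -0.53, edgeR adjusted p = 0.0239, and 0 lower without any 1 pair). Of 138 cytosolic ribosomal protein genes none was called in either fit (median -0.08). In all, 12 of 41 lists had a called member, and the other 29 had medians between -0.22 and 0.24. With the block 5.19% of all genes tested were called, so many lists could hold such a member from that share alone. A member passed with the block in 16 of the 29. Among these, *OLE1*, the fatty acid desaturase, *FAS2* and *FAA4* (log2 fold changes -0.58, -0.36 and -0.49) were lower, as were *ERG25*, *ERG3* and *ERG11* of ergosterol synthesis (-0.59, -0.37 and -0.32). *GDH1* and *GLN1*, which assimilate ammonium, were higher (0.48 and 0.33).

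**Figure D4:**
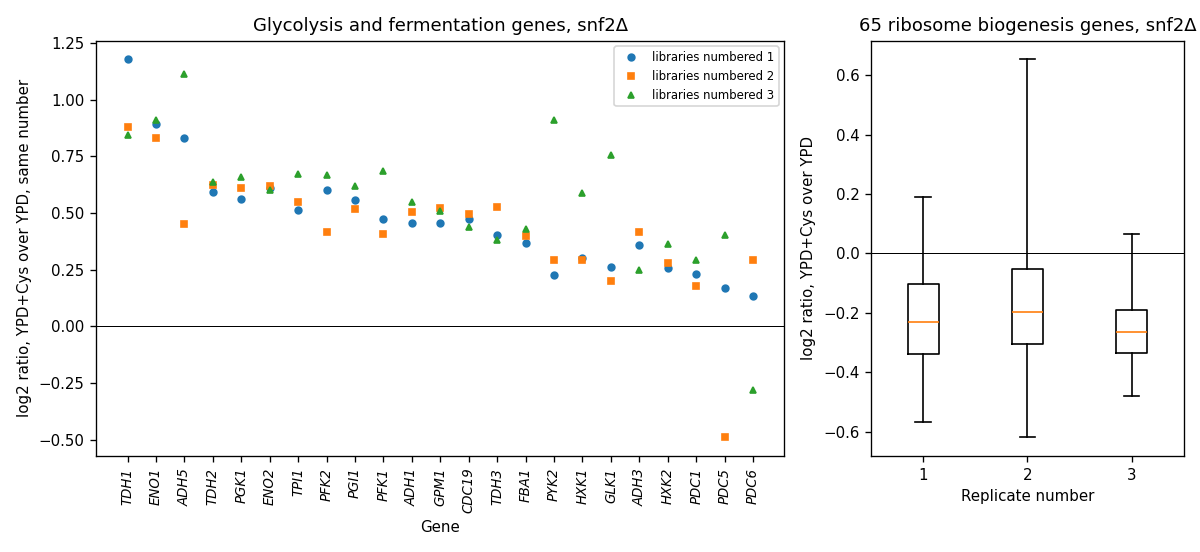
Log2 ratio of YPD+Cys over YPD between same-numbered *snf2Δ* libraries, for 23 glycolysis and fermentation genes (left, 1 point per replicate number) and 65 ribosome biogenesis genes (right, boxes from the lower to the upper quartile with the median and whiskers to the extremes). The medians of the 3 pairs were 0.46, 0.45 and 0.60 on the left and -0.23, -0.20 and -0.26 on the right.

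The largest rise among genes called with the block was that of *PDR12*, an exporter of weak organic acids, with a log2 fold change of 1.34 in that fit and 1.43 without the block (edgeR adjusted p of 6.71e-06 and 0.145). It stood at 283.3, 138.6 and 171.1 CPM in YPD and at 747.4, 208.8 and 644.6 CPM in YPD+Cys, so each pair rose while the groups overlapped. *DIP5*, a permease for acidic amino acids, and *PTR2*, a peptide transporter, had unblocked log2 fold changes of 0.87 each (edgeR adjusted p of 0.831 and 0.870, and 7.8e-05 and 2.7e-06 with the block). The deepest falls called only with the block, from -3.59 to -4.21, were those of 6 reading frames in the ribosomal DNA (*YLR154W-A*, *YLR154W-B*, *TAR1*, *YLR154W-F*, *YLR162W* and *RRT15*), which had edgeR adjusted p of 0.87 to 0.998 without it. *TAR1* stood at 1.86, 219.2 and 100.1 CPM in YPD and at 0.662, 0 and 16.9 CPM in YPD+Cys. Within each pair the YPD library held more of these reads in sum, although *RRT15* in pair 1 stood at 0.233 CPM in YPD and 0.662 CPM in YPD+Cys. The YPD library of each pair also held more reads placed at several positions, and the part of the latter was not tested.

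The size of the fall was set against the response of wt, which has its own YPD and YPD+Cys libraries. Of the 34 lowered genes, 30 had a negative log2 fold change in wt, where the median over all genes was -0.004. In wt 6 of the 34 were called lower (17 with the block), and 0.226% of all genes were called lower without the block and 3.13% with it. The median of the 34 was -1.61 in *snf2Δ* and -0.59 in wt. The 34 were selected for their fall in *snf2Δ*, which by itself favours the larger value there. The difference of the responses was called for 5 genes (0.0869% of those tested), all with the larger fall in *snf2Δ*, and for 32 with the block (0.556%), 5 with a higher and 27 (0.469%) with a lower response in *snf2Δ*. The 5 genes were *SUL2*, *MET3*, *MET14*, *MET5* and *SER33*, of which the first 4 act in sulfate uptake and assimilation.

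In wt, *SUL2* stood at 18.9, 23.1 and 14.1 CPM in YPD and at 20.7, 35.2 and 16.9 CPM in YPD+Cys. The *snf2Δ* YPD libraries (168.0 to 275.0 CPM) were above all wt libraries, and the *snf2Δ* YPD+Cys libraries (24.1 to 42.6 CPM) overlapped those of wt. The difference of the log2 responses, *snf2Δ* minus wt, was -3.14 ± 0.41 (edgeR adjusted p = 0.00202). *MET3* stood in wt at 24.1, 20.5 and 19.6 CPM in YPD and at 26.7, 25.8 and 24.7 CPM in YPD+Cys, and its difference was -2.72 ± 0.34 (adjusted p = 0.00202). *MET14* stood in wt at 22.1, 24.8 and 20.7 CPM and at 19.6, 22.6 and 18.6 CPM, with a difference of -2.43 ± 0.35 (adjusted p = 0.00491). With cysteine, *MET14* in *snf2Δ* lay below every wt library. For *MET5* the wt values were 101.6, 100.2 and 97.6 CPM in YPD and 92.1, 115.0 and 86.3 CPM in YPD+Cys, and the difference was -2.03 ± 0.30 (adjusted p = 0.00491). *SER33* stood in wt at 74.6 to 96.9 CPM in YPD and at 68.4 to 90.1 CPM in YPD+Cys, with a difference of -1.28 ± 0.21 (adjusted p = 0.0192). That difference missed, at edgeR adjusted p of 0.0627 to 0.0826, without *snf2Δ* YPD library 3, *snf2Δ* YPD+Cys library 1 or 3, wt YPD library 1, or wt YPD+Cys library 2 or 3.

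With the block, *MET10* (-1.62), *MET2* (-2.05), *MET6* (-1.93), *MUP1* (-1.92), *STR3* (-1.51), *MMP1* (-1.08), *MET1* (-1.08), *MET8* (-1.63), *CYS4* (-0.69) and *MET30* (-0.77) also had a lower response in *snf2Δ*. *SUL1* went in opposite directions, with a wt log2 fold change of 2.11 (2.61, 2.85 and 3.33 CPM in YPD, and 13.6, 21.1 and 3.50 CPM in YPD+Cys) and a blocked difference of -3.51 (adjusted p = 0.000938). *TDH2* rose less in *snf2Δ*, by 0.62 against 1.44 in wt, with a blocked difference of -0.82 (adjusted p = 0.000956). Other lowered genes were below 0 in both strains. *CHO2* had -1.37 in *snf2Δ* and -1.25 in wt, a difference of -0.12 ± 0.18 (SE). *OPT1* had -2.04 and -1.65 (difference -0.39 ± 0.32), *SAM3* -1.40 and -1.29 (-0.11 ± 0.32), *FRE1* -1.91 and -2.12 (0.21 ± 0.43) and *CTR1* -1.48 and -2.36 (0.88 ± 0.44). None of these 5 differences passed in either fit. *GND1*, *GPD2* and *ENO1*, with 0.94, 0.88 and 0.88 in *snf2Δ*, had 1.27, 1.05 and 0.69 in wt. There *ENO1* passed with the block only (edgeR adjusted p of 0.169 without and 6.24e-05 with it).

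**Figure D5:**
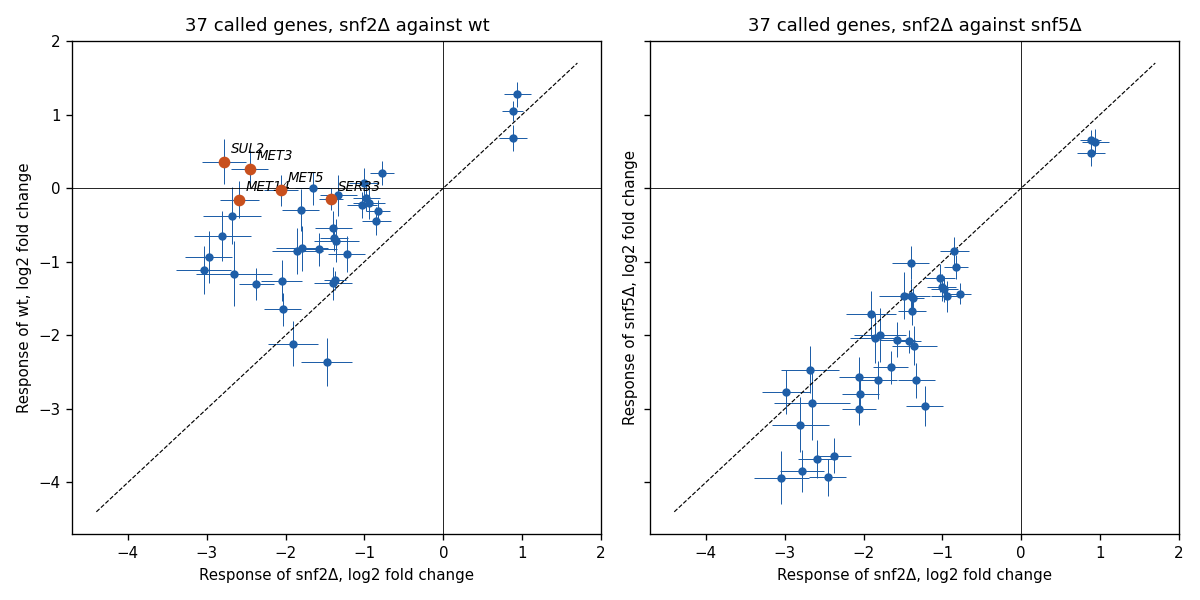
Log2 fold change (± SE) of the 37 genes called in *snf2Δ* on the x axis against that of wt (left) and *snf5Δ* (right) on the y axis, with the dashed line at equal responses. The 5 genes whose response differed from wt are orange and lie near 0 in wt, while in *snf5Δ* all 34 lowered genes also lie below 0.

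In *snf5Δ*, which lacks another subunit of Swi-Snf, all 34 genes lowered in *snf2Δ* were also called lower, with a median of -2.11. That strain had 48 lower genes (0.834%). Reads placed at several positions took 71.4% of its YPD library 3, which held 1329986 reads counted in genes. The difference of the responses, *snf2Δ* minus *snf5Δ*, was called for 0 genes by edgeR, by DESeq2 and by limma on log2(TPM + 1) (64, 48 and 34 genes at an unadjusted p under 0.05). With the block it was called for 10 genes (0.174%), all with the higher response in *snf2Δ*. Among these, *MET3* had -2.46 in *snf2Δ* and -3.93 in *snf5Δ*, *MMP1* -2.37 and -3.64, *MHT1* -1.23 and -2.97, *SUL1* -1.38 and -3.87, *YCT1* -0.24 and -1.34, *MET22* -0.37 and -1.12, *HOM6* -0.28 and -0.86, and *YHR112C* -0.78 and -1.43. *ZWF1* had -0.21 and -0.91, and *TDH1* 0.97 and 0.33.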

How the data were processed

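Total RNA depleted of ribosomal RNA was sequenced from both ends. The authors demultiplexed with bcl2fastq 2.18, aligned with STAR 2.7.3a to sacCer3 with Ensembl gene models and deposited unnormalized counts per gene, in which whether strand was used is not given in the sources used here. They also deposited TPM and expected counts from RSEM 1.3.0. The 4 lines of the count table that name no gene took 14.8% to 62% of a *snf2Δ* library and were left out. Libraries of all 6 groups were scaled by TMM, filtered by filterByExpr and put in a single edgeR 4.0.16 model (R 4.3.3) with 12 residual degrees of freedom. The contrasts were the *snf2Δ* response and its difference from that of wt and *snf5Δ*. Genes were called at an adjusted p under 0.05. The scripts were tested on simulated counts.

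The numbers of the *snf2Δ* libraries were treated as pairs because deviations from the group means correlated across genes. The values were 0.571, 0.459 and 0.787 for pairs 1, 2 and 3. Between unmatched numbers they ran from -0.622 to 0.33. Deviations from a group mean cancel within the group, so positive matched values by themselves push the unmatched ones down. YPD library 1 with YPD+Cys library 2 gave 0.33 and YPD library 2 with YPD+Cys library 1 gave 0.205, so pairs 1 and 2 were less clearly told apart than pair 3. No 2 libraries held identical counts. In each direction the text names up to 20 called genes with the largest fold changes, provided that a group reached 10 CPM and the libraries did not overlap. It also names up to 10 per direction in each difference by the same rule on pair ratios, and members of a described list. Members, lists and rules were chosen with earlier results of these data known. Of 7127 identifiers, 6047 matched RefSeq R64, and deposited gene lengths equalled the RefSeq span for 95.2% of protein-coding genes compared. Motif shares cover the 500 bases before the start codon.

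Counts were also scaled by library totals or RLE, left unfiltered, held to 10 in every library or limited to nuclear protein-coding genes. Other fits used DESeq2 1.42.0, expected counts rounded to whole numbers, limma 3.58.1 on log2(TPM + 1) and log2(TPM + 0.1), the 6 *snf2Δ* libraries alone, and the replicate block. Each library was left out in turn, as were *snf2Δ* YPD libraries 2 and 3 together, with 53.5% and 44.6% of reads at several positions. *snf5Δ* YPD library 3, at 71.4%, stayed in the fit without those 2. The block without each *snf2Δ* pair and DESeq2 with the block were chosen after seeing the data.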

Additional observations from a re-analysis of the deposited data

Results flagged for a closer look

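The cysteine response differed between *snf2Δ* and wt, by edgeR's test of the difference itself, for 5 genes. The differences of the log2 fold changes (*snf2Δ* minus wt, 3 libraries in each of 4 groups) were -3.14 for *SUL2*, -2.72 for *MET3*, -2.43 for *MET14*, -2.03 for *MET5* and -1.28 for *SER33*. In each of the 5 genes the 3 same-numbered pair ratios of *snf2Δ* lay below those of wt. Such separation was also a condition for naming genes, and its share over all genes was not counted. With limma on log2(TPM + 1) the differences of *MET14*, *MET5* and *SER33* did not pass (adjusted p of 0.375, 0.431 and 0.902).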

How the results depend on the processing

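In place of 34 lower and 3 higher genes in the *snf2Δ* response, the replicate block gave 174 and 125. The 6 *snf2Δ* libraries alone gave 23 and 0 (218 and 164 with the block). DESeq2 gave 40 and 15 (61 and 46 with the block), and limma 16 and 1 with either pseudocount of TPM (1 or 0.1). The block without *snf2Δ* pair 1, 2 or 3 gave 65, 110 or 74 lower and 32, 111 or 37 higher genes. Leaving out each library gave 20 to 29 lower and 1 to 4 higher genes. The difference from wt was called for 5 genes, for 32 with the block, 14 with DESeq2, 25 with DESeq2 and the block, 2 and 1 with limma on log2(TPM + 1) and log2(TPM + 0.1), and 4 to 6 without each library. The difference from *snf5Δ* was called for 0 genes, for 10 with the block, 3 with DESeq2 and the block, and 0 without each library. The cause of these changes was not tested.

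All 34 lower and 3 higher genes kept their direction in every alternative in which they were tested, and 13 (*MET2*, *MET3*, *MET5*, *MET6*, *MET10*, *MET14*, *MMP1*, *MUP1*, *MXR1*, *OPT1*, *STR3*, *SUL2* and *CHO2*) stayed called in all 23. Of single-gene results 804 stayed on their side of the threshold and 160 lost the call. The share of higher genes among those called was 8.11%, 27.3% with DESeq2 and 41.8% with the block. On the TPM scale the median of all genes was shifted by 0.20 and 0.22. The block lost none of the 37 calls. YPD libraries 2 and 3 had the fewest reads in genes of the 6 (2101434 and 2229514), and falls of genes under about 10 CPM, such as *MET32* and *GRX8*, rest on few counts.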
